A study of Sus scrofa with 9 samples.

Results

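The genes described here encode plasma membrane and organelle transporters of sodium, chloride, bicarbonate, phosphate, sulfate, protons, calcium and small carboxylates. Many are driven by sodium, while others, such as the SLC26 exchangers and SLC4A1, exchange anions without it. They were chosen by gene symbol, as all genes of the SLC4, SLC8, SLC9, SLC12, SLC13, SLC20, SLC24, SLC26 and SLC34 families that the array's annotation names on a probe set with a single symbol. SLC12A1 and SLC26A7 were left out by the rule. The rule gave 35 of 12355 named genes, each read from the probe set of highest mean over all 9 arrays. Of the 35, 32 are transporters. The other 3 are binding partners whose symbols share the pattern: SLC9A3R1 and SLC9A3R2, the scaffold proteins NHERF1 and NHERF2, and SLC4A1AP, a protein named for its binding to SLC4A1.

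The kidneys came from male Yorkshire pigs of 30 kg, 3 animals per group and 1 biopsy and array per animal. Every right kidney lost its blood supply for 30 min while warm and was then taken out, flushed and put back into the same pig (autotransplantation), and the left kidney was removed at that operation. No Storage kidneys were re-implanted straight away, SCS kidneys first lay in static cold storage for 8 h, and NEVKP kidneys first underwent normothermic ex vivo kidney perfusion for 8 h. Biopsies were taken on day 3 after surgery, so all 9 arrays, the No Storage ones included, show kidneys after warm ischemia and transplantation. No unoperated kidney was analysed here.

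In the nephron, most filtered sodium, bicarbonate, phosphate, sulfate and citrate is taken back in the proximal tubule. The sodium pump keeps cell sodium low, and the gradient drives cotransporters and the exchange of sodium for protons at the brush border, while bicarbonate leaves on the blood side through the cotransporter NBCe1, the product of SLC4A4. Later segments reabsorb sodium chloride, and intercalated cells of the collecting duct fine-tune acid and base with anion exchangers such as AE1, the product of SLC4A1. Phosphate uptake is set by parathyroid hormone and by FGF23 with its co-receptor Klotho.

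Values are log2 intensities, on which a difference of 1 is a factor of 2. Array medians ran from 5.7 to 5.8, and arrays correlated at 0.974 to 0.991 with each other across probe sets. A gene was called dim where the mean of its probe set over the 9 arrays lay in the lowest 25% of all probe sets, under 3.92. Of the 35 members, 27 lay above this limit and 8 were dim. SCS replicate 2 and NEVKP replicate 2 stood apart from the other arrays, with limma array weights of 0.464 and 0.565 against 0.93 to 1.62 for the rest. Kidney tissue was evident in all arrays: the mean over 9 of 15 proximal tubule markers (LRP2, CUBN, SLC5A2, SLC5A12, SLC3A1, SLC6A19, MIOX, GATM and HNF4A) was 11.05 to 11.25 in No Storage, 9.97 to 10.68 in SCS and 10.07 to 10.93 in NEVKP. The lowest of these were SCS replicate 2 (9.97) and NEVKP replicate 2 (10.07). In whole biopsies, fewer cells of a type and less RNA per cell cannot be told apart.

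After cold storage, SLC13A1, SLC13A2 and SLC13A3, carriers of sulfate and dicarboxylates, lay lower than in kidneys that were not stored. So did the sodium-proton exchangers SLC9A2 and SLC9A7, but no single member passed the test over the whole array. Of 4 phosphate transporters, 3 lay higher and 1 lower, where 6182 of 12355 named genes lay higher. Of these 3, SLC34A1 is named by the array's annotation alone and had a mean of only 4.87, against a dim limit of 3.92. SLC34A2 was far highest in SCS replicate 2 within its group. The 3 largest downward differences above the dim limit were those of SLC13A3, SLC13A2 and SLC4A1 (-1.07, -0.88 and -0.75 on the log2 scale), and the 3 largest upward ones those of SLC34A2, SLC34A1 and SLC4A7 (1.64, 1.02 and 0.97). After warm perfusion, SLC4A7 (1.43) and SLC34A2 (1.28) lay highest above No Storage and SLC26A6 (-0.97) farthest below it. SLC13A1, SLC13A2 and SLC13A3 also had lower means after warm perfusion than in No Storage (-0.52, -0.46 and -0.73). For each of them the NEVKP and SCS arrays overlapped. Over 9 measured proximal tubule markers, the median difference from No Storage was -1.01 in SCS and -0.50 in NEVKP. Its part in the SLC13 differences was not tested. Both comparisons with No Storage use the same 3 No Storage arrays.

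In limma fitted to all 19124 probe sets with Benjamini-Hochberg adjustment, 0 of 35 members passed an adjusted p of 0.05 between SCS and No Storage, where 0.068% of all probe sets passed as higher and 0.0941% as lower. At an unadjusted p under 0.05, 3 members were higher in SCS and 7 lower, 8.57% and 20% of the 35, against 7.79% and 9.06% of all named genes. Arrays of the compared groups did not overlap for 4 members on the higher and 11 on the lower side, 11.4% and 31.4%, beside 11.7% and 13.3% of all named genes. The share on the lower side thus stood above the background and the share on the higher side close to it. The 11 lower members include the scaffold genes SLC9A3R1 and SLC9A3R2, which are not transporters. SLC4A4, SLC12A2, SLC9A7, SLC26A11, SLC34A3 and SLC9A3R2 separated by only 0.01 to 0.07 at the nearest pair, and the others by 0.11 to 0.45. The median difference over the 35 members was -0.04, and -0.15 over the 27 above the dim limit, against 0.00 over all named genes. Without No Storage replicate 3, 4 members were lower at an unadjusted p under 0.05 rather than 7, and without NEVKP replicates 1 and 2, in turn, 5 and 6 were higher rather than 3. The share of all named genes was not counted in these refits, so the counts do not tell a shift of the members from one of the whole array.

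Between NEVKP and No Storage, 0 of 35 members passed in limma, and 0.0% of all probe sets did so in either direction. At an unadjusted p under 0.05, 2 members were higher and 5 lower, 5.71% and 14.3%, against 5.16% and 4.77% of all named genes. Arrays did not overlap for 3 members on the higher and 4 on the lower side, 8.57% and 11.4%, beside 8.74% and 9.32%. The lower count at an unadjusted p under 0.05 was 3, 1 and 2 without No Storage replicate 1, No Storage replicate 3 and NEVKP replicate 2, and the higher count was 5 without NEVKP replicate 1. Again, the share of all named genes was not counted in these refits. The median over the members was -0.03.

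Between NEVKP and SCS, 0 of 35 members and 0.0% of all probe sets passed in limma in either direction. At an unadjusted p under 0.05, 3 members were higher in NEVKP (8.57%, against 4.42% of all named genes) and 1 was lower (2.86%, against 3.29%). Arrays did not overlap for 4 on the higher and 1 on the lower side, 11.4% and 2.86%, beside 5.84% and 6.56%. The higher count was 1 without SCS replicate 2 and 5 without NEVKP replicate 1 or NEVKP replicate 2, and the lower count was 2 without SCS replicate 1 or NEVKP replicate 1. Here too, the share of all named genes in the refits was not counted. The median over the members was 0.00.

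**Figure D1:**
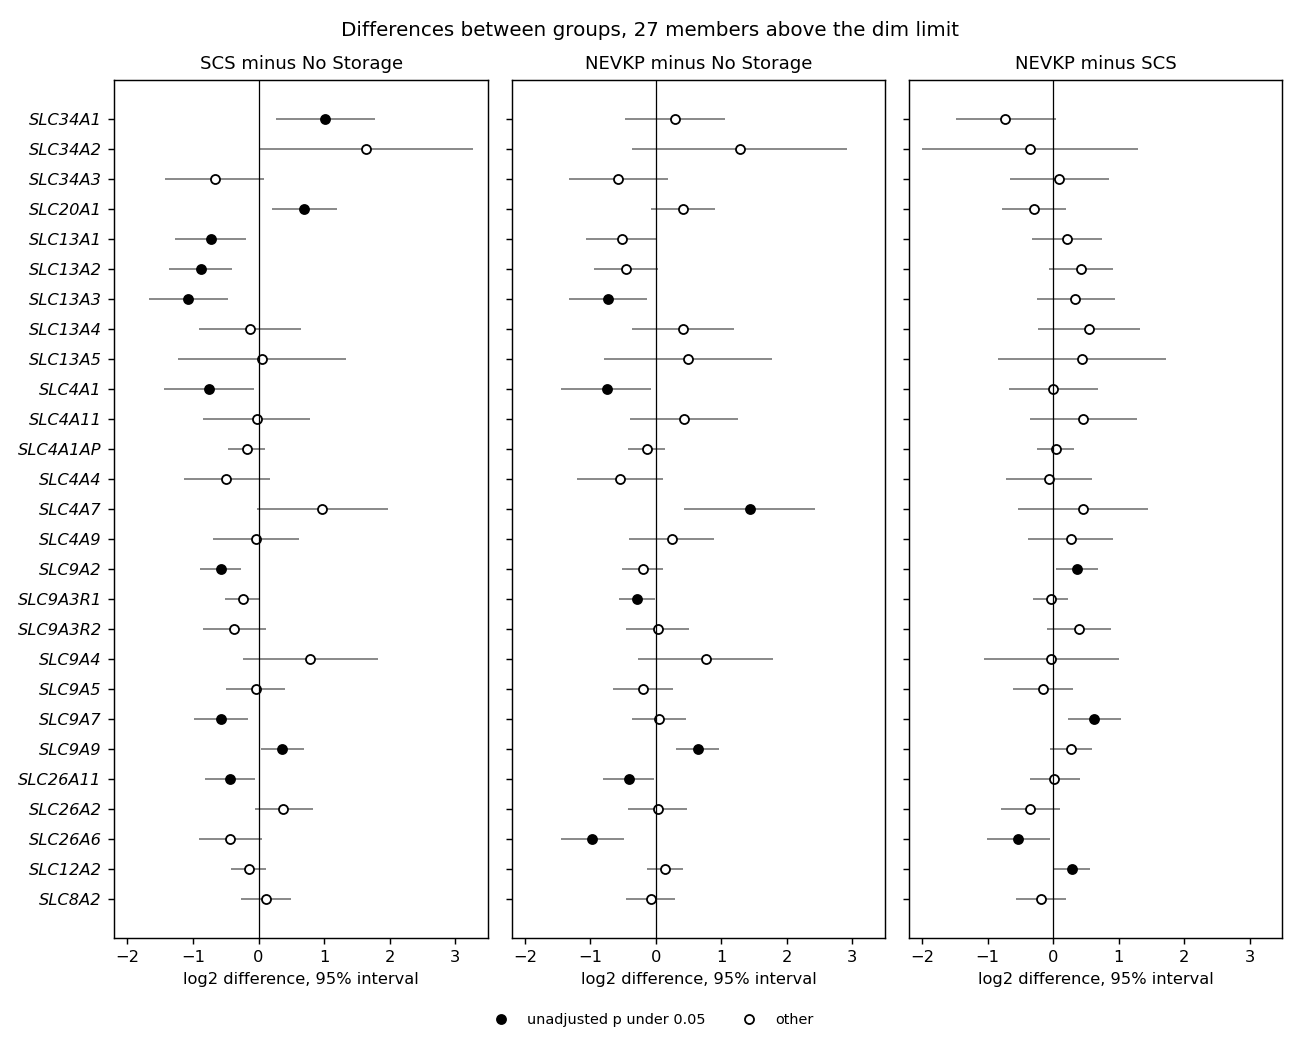
Log2 difference (x axis) of each of the 27 members above the dim limit (y axis, grouped by family) for SCS minus No Storage, NEVKP minus No Storage and NEVKP minus SCS, from limma, with 95% intervals not adjusted for the number of genes; filled points have an unadjusted p under 0.05. SLC13A3, SLC13A2 and SLC13A1 lie left of 0 with their whole interval in the first panel, and the widest intervals are those of SLC34A2 and SLC13A5.

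Among phosphate transporters, 4 genes were measured, and they did not move one way. SLC34A1 encodes NaPi-IIa, a brush border cotransporter of the proximal tubule. Its probe set read 4.01, 4.82 and 4.46 in No Storage replicates 1 to 3, 4.94, 5.61 and 5.80 in SCS, and 5.49, 4.28 and 4.40 in NEVKP. All SCS arrays lay above all No Storage arrays, while NEVKP overlapped both, with replicate 1 high. The SCS difference was 1.02 (95% interval 0.26 to 1.78, limma adjusted p = 0.193). The array's gene ID for this probe set has no entry in the RefSeq gene table (Sscrofa11.1), where SLC34A1 stands under another ID. The name thus rests on the array's annotation alone. The probe set was also weak, with a mean over all arrays of 4.87, against a dim limit of 3.92 and a mean of 7.6 for SLC34A3. In No Storage its mean was 4.43, where that of the measured proximal tubule markers ran from 11.05 to 11.25. Whether the probe set reports kidney SLC34A1 was not tested, so its values may not be those of the brush border cotransporter.

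SLC34A3 encodes NaPi-IIc, the second brush border cotransporter of this family in the proximal tubule. It read 8.03, 7.86 and 8.14 in No Storage, 6.93, 7.79 and 7.31 in SCS, and 7.72, 6.56 and 8.03 in NEVKP. SCS lay below No Storage in every array, by 0.07 at the nearest pair, and NEVKP replicate 2 was the lowest of all 9. The differences were -0.66 for SCS (95% interval -1.42 to 0.09, limma adjusted p = 0.385) and -0.57 for NEVKP (limma adjusted p = 0.653), the latter -0.13 without NEVKP replicate 2. With SCS replicate 2 and NEVKP replicate 2 both left out, the SCS difference was -0.89 (limma adjusted p = 0.102).

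SLC34A2 encodes NaPi-IIb, the family member best known from lung and intestine. It had the largest SCS difference of all members and also one of the widest spreads. The No Storage arrays read 5.09, 5.84 and 5.71, the SCS arrays 6.49, 8.78 and 6.28, and the NEVKP arrays 5.61, 8.36 and 6.52. The highest values were those of SCS replicate 2 and NEVKP replicate 2, and all 3 SCS arrays exceeded all 3 No Storage arrays. The difference was 1.64 for SCS (SE 0.74, limma adjusted p = 0.323) and 1.28 for NEVKP (SE 0.74, limma adjusted p = 0.642). With both of these arrays left out, a setting added after the data were seen, it was 0.84 for SCS and 0.51 for NEVKP.

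SLC20A1 encodes PiT-1, a sodium-phosphate cotransporter found in most cell types. It read 8.66, 8.50 and 8.56 in No Storage, 9.63, 9.47 and 8.72 in SCS, and 8.75, 9.19 and 9.03 in NEVKP. Every array of either preserved group lay above every No Storage array. The SCS difference was 0.70, a 1.63-fold level (95% interval 0.21 to 1.2, limma adjusted p = 0.166), and the NEVKP difference was 0.41 (-0.08 to 0.91, limma adjusted p = 0.604). It was the 1 member that passed under any alternative: without SCS replicate 3, the SCS difference was 0.98 (limma adjusted p = 0.0412). The mean of 8 measured smooth muscle and fibroblast markers was 9.27 to 9.37 in No Storage, 9.87 to 10.23 in SCS and 9.83 to 10.35 in NEVKP, and its part in the differences of SLC20A1, SLC34A2 and SLC4A7 was not tested.

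Of 5 members of the SLC13 family, 3 were lower in SCS than in No Storage at an unadjusted p under 0.05 and 0 higher, where 9.06% and 7.79% of all named genes were. SLC13A1 encodes NaS1, which takes sulfate back from the proximal tubule fluid, SLC13A2 encodes NaDC1, which takes up citrate and other dicarboxylates from the fluid, and SLC13A3 encodes NaDC3, the dicarboxylate carrier of the blood side. All 3 lay lower in every SCS array than in any No Storage array. SLC13A3 read 10.58, 10.23 and 10.67 in No Storage, 9.78, 8.96 and 9.52 in SCS, and 10.19, 9.23 and 9.87 in NEVKP. NEVKP also lay below No Storage throughout, by 0.04 at the nearest pair. The SCS difference was -1.07 (SE 0.27, limma adjusted p = 0.108), a level lower by a factor of 2.10, and the NEVKP difference was -0.73 (SE 0.27, limma adjusted p = 0.478), or -0.46 without NEVKP replicate 2.

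SLC13A2 read 9.02, 8.42 and 9.15 in No Storage, 8.13, 7.86 and 7.96 in SCS, and 8.03, 8.63 and 8.57 in NEVKP. NEVKP replicate 1 fell within the SCS range and the other NEVKP arrays within that of No Storage. The SCS difference was -0.88 (SE 0.22, limma adjusted p = 0.107). SLC13A1 read 10.97, 11.11 and 11.51 in No Storage, 10.68, 10.05 and 10.67 in SCS, and 11.10, 10.30 and 10.65 in NEVKP. Its difference was -0.73 for SCS (limma adjusted p = 0.189) and -0.52 for NEVKP (limma adjusted p = 0.563), with SCS replicate 2 and NEVKP replicate 2 lowest. Without NEVKP replicate 2 the NEVKP difference was -0.32. Of 9 measured proximal tubule markers, 5 were lower in SCS and 3 in NEVKP at an unadjusted p under 0.05, with medians of -1.01 and -0.50. Their mean was lowest in the same 2 arrays, and its part in these differences was not tested.

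The remaining SLC13 members did not share this. SLC13A5, the citrate carrier NaCT, read 8.04, 7.16 and 8.36 in No Storage, 7.41, 6.80 and 9.50 in SCS, and 8.32, 8.14 and 8.57 in NEVKP, with SCS replicates 2 and 3 at the bottom and top of all 9 arrays. Its SCS difference of 0.05 had a 95% interval from -1.23 to 1.33. SLC13A4, a sulfate carrier, lay between 4.85 and 5.47 in 8 arrays and at 6.53 in NEVKP replicate 2.

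**Figure D2:**
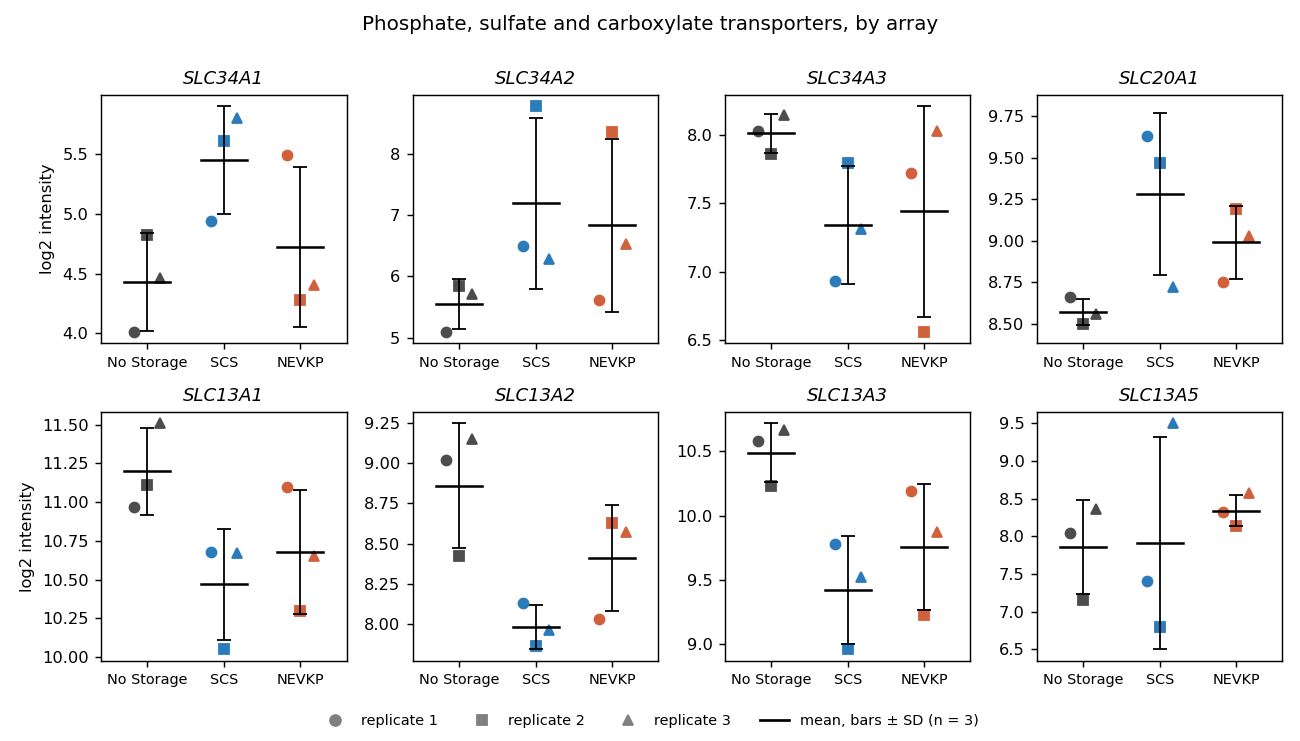
Log2 intensity (y axis, scaled per gene) of 4 phosphate, 1 sulfate and 3 carboxylate transporters in No Storage, SCS and NEVKP (x axis); each symbol is 1 array, lines are means and bars are SD (n = 3 animals). The SCS arrays of SLC13A1, SLC13A2 and SLC13A3 lie below the No Storage arrays, SLC20A1 lies above them in both preserved groups, and replicate 2 of SCS (8.78) and NEVKP (8.36) stand out for SLC34A2.

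The SLC4 family holds mostly bicarbonate transporters, and 5 of its 6 transporters here were above the dim limit. SLC4A4, the proximal tubule exit path for bicarbonate, read 11.70, 11.79 and 11.94 in No Storage, 11.51, 10.77 and 11.69 in SCS, and 11.74, 10.62 and 11.41 in NEVKP. SCS replicate 2 and NEVKP replicate 2 were again lowest, and the other arrays spanned 11.41 to 11.94. SCS stayed below No Storage throughout, by 0.01 at the nearest pair. The differences were -0.49 for SCS (limma adjusted p = 0.48) and -0.55 for NEVKP (limma adjusted p = 0.606). They were -0.21 and -0.23 with both these arrays left out.

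SLC4A7 encodes NBCn1, an electroneutral sodium-bicarbonate cotransporter. It read 6.88, 6.02 and 6.56 in No Storage, 7.75, 7.91 and 6.71 in SCS, and 7.07, 8.89 and 7.79 in NEVKP. All NEVKP arrays exceeded all No Storage arrays, whereas SCS replicate 3 lay within the No Storage range. The NEVKP difference was 1.43, a 2.69-fold level (95% interval 0.43 to 2.43, limma adjusted p = 0.439), and 0.94 without NEVKP replicate 2. The SCS difference was 0.97 (95% interval -0.03 to 1.97, limma adjusted p = 0.335). NEVKP differed from SCS by 0.46 (limma adjusted p = 0.818), a sign that turned to -0.03 without NEVKP replicate 2.

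SLC4A1 encodes AE1, the chloride-bicarbonate exchanger of acid-secreting intercalated cells and of red cells. It read 7.39, 8.03 and 7.92 in No Storage, 6.58, 7.07 and 7.43 in SCS, and 7.61, 6.45 and 7.03 in NEVKP. Both preserved groups overlapped No Storage, through SCS replicate 3 and NEVKP replicate 1. The difference was -0.75 in each, with a limma adjusted p of 0.279 for SCS and 0.525 for NEVKP. Without NEVKP replicate 2 the NEVKP difference was -0.46. The red cell genes HBB and ALAS2 were dim in these arrays, with group means from 3.46 to 3.68 and from 2.66 to 2.89. A dim probe set does not show whether the RNA is absent or not detected, and the part of red cells was not tested. Of 8 measured intercalated cell markers, 6 were lower in SCS and 6 in NEVKP at an unadjusted p under 0.05, with medians of -0.85 and -0.66, and their mean per array was 8.77 to 8.92 in No Storage, 7.57 to 8.38 in SCS and 7.85 to 8.58 in NEVKP. Their part in the SLC4A1 difference was not tested.

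SLC4A9, the anion exchanger AE4 of intercalated cells, lay between 5.12 and 6.35 with overlapping groups. SLC4A11, a family member that is not a bicarbonate carrier, lay between 5.44 and 7.02, highest in NEVKP replicate 2. SLC4A10, a brain transporter, was dim, and SLC4A1AP lay between 6.56 and 6.94.

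Sodium-proton exchangers of the SLC9 family differed by member. SLC9A2, the apical exchanger NHE2, read 8.63, 8.41 and 8.59 in No Storage, 8.08, 7.89 and 7.94 in SCS, and 8.16, 8.27 and 8.59 in NEVKP. Every SCS array lay below every array of both other groups. The SCS difference from No Storage was -0.57 (95% interval -0.89 to -0.26, limma adjusted p = 0.107), and NEVKP lay 0.37 above SCS (95% interval 0.05 to 0.69, limma adjusted p = 0.648). Without NEVKP replicate 3 the latter was 0.24. A second SLC9A2 probe set gave -0.45 for SCS against No Storage and 0.21 for NEVKP against SCS.

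SLC9A7 encodes NHE7, an exchanger of the trans-Golgi network. It read 6.61, 6.14 and 6.71 in No Storage, 5.90, 5.73 and 6.10 in SCS, and 6.36, 6.79 and 6.46 in NEVKP. As for SLC9A2, the SCS arrays lay below those of both other groups, by 0.03 at the nearest pair with No Storage. SCS differed from No Storage by -0.58 (limma adjusted p = 0.175), and NEVKP lay 0.63 above SCS (95% interval 0.22 to 1.04, limma adjusted p = 0.572), the smallest p of all members in that comparison. The mean of 7 measured thick ascending limb and distal tubule markers was also lowest in SCS. It was 9.44 to 9.75 in No Storage, 8.34 to 9.19 in SCS and 9.31 to 9.52 in NEVKP. Single markers did not all follow this order. TRPM6 had its lowest mean in NEVKP (6.67, against 7.26 in SCS), and TMEM52B was alike in SCS and NEVKP (9.67 and 9.62). PVALB was alike in No Storage and SCS (4.21 and 4.20). Proximal tubule and intercalated cell markers were lower in SCS as well, with medians of -1.01 and -0.85 against No Storage. The part of any of these marker sets in the differences of SLC9A2 and SLC9A7 was not tested.

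SLC9A9 encodes NHE9, an endosomal exchanger, and its means lay higher in both preserved groups. It read 6.02, 5.58 and 5.83 in No Storage, 6.33, 6.17 and 6.01 in SCS, and 6.35, 6.47 and 6.52 in NEVKP. The NEVKP arrays exceeded all others, by 0.01 at the nearest pair with SCS, and SCS replicate 3 met the top of the No Storage range. NEVKP lay 0.28 above SCS (limma adjusted p = 0.692). The NEVKP difference was 0.64 with an SE of 0.15 (95% interval 0.31 to 0.96, limma adjusted p = 0.345), and the SCS difference was 0.36 (limma adjusted p = 0.274). Mean levels of 10 measured monocyte and macrophage markers ran from 6.85 to 6.93 in No Storage, 6.92 to 7.26 in SCS and 7.21 to 7.75 in NEVKP, and their part in the SLC9A9 difference was not tested.

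SLC9A4, the exchanger NHE4, lies next to SLC9A2 in the genome, with 0 protein-coding genes between them in the RefSeq table, and its values ran differently. It read 6.48, 6.54 and 6.55 in No Storage, 6.84, 8.41 and 6.69 in SCS, and 6.48, 8.07 and 7.30 in NEVKP. The 3 No Storage arrays lay within 0.07 of each other, and SCS replicate 2 and NEVKP replicate 2 were highest. The differences were 0.79 for SCS (SE 0.46, limma adjusted p = 0.459) and 0.76 for NEVKP (SE 0.46, limma adjusted p = 0.658), and 0.24 and 0.36 without these 2 arrays. A second probe set of SLC9A4 had the same 2 arrays highest, at 7.51 and 7.94. Its differences were 0.41 for SCS (limma adjusted p = 0.694) and 0.72 for NEVKP (limma adjusted p = 0.633). On this probe set the SCS arrays overlapped No Storage, whereas on the first they lay above it without overlap.

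SLC9A5, the brain exchanger NHE5, lay between 3.92 and 4.64 with overlapping groups. The scaffold NHERF1 (SLC9A3R1), which ties phosphate and sodium-proton transporters to the brush border cytoskeleton, had one of the narrowest spreads. It read 10.57, 10.54 and 10.50 in No Storage, 10.16, 10.33 and 10.39 in SCS, and 10.35, 10.09 and 10.31 in NEVKP. All arrays of both preserved groups lay below No Storage, with differences of -0.24 (limma adjusted p = 0.378) and -0.28 (limma adjusted p = 0.536). NHERF2 (SLC9A3R2) lay between 7.55 and 7.76 in No Storage, 7.0 and 7.48 in SCS, and 7.18 and 8.10 in NEVKP.

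Among SLC26 anion exchangers, SLC26A6 lay farthest below No Storage after warm perfusion. It encodes PAT1, an exchanger of chloride with oxalate and other anions at the proximal tubule brush border. It read 7.77, 8.40 and 8.20 in No Storage, 7.68, 7.44 and 7.95 in SCS, and 7.32, 6.78 and 7.36 in NEVKP. All NEVKP arrays lay below all arrays of both other groups, and SCS overlapped No Storage. The NEVKP difference from No Storage was -0.97, lower by a factor of 1.95 (95% interval -1.45 to -0.48, limma adjusted p = 0.342), the smallest p of all members in that comparison. NEVKP differed from SCS by -0.53 (95% interval -1.01 to -0.05, limma adjusted p = 0.648), or -0.34 without NEVKP replicate 2, and SCS from No Storage by -0.43 (limma adjusted p = 0.372).

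SLC26A11, a sulfate and chloride transporter, read 8.28, 7.94 and 8.03 in No Storage, 7.36, 7.69 and 7.88 in SCS, and 7.54, 7.55 and 7.92 in NEVKP. Both preserved groups lay below No Storage without overlap, by 0.05 and 0.02 at the nearest pairs. The differences were -0.44 for SCS (limma adjusted p = 0.265) and -0.41 for NEVKP (limma adjusted p = 0.531). A second probe set gave -0.39 and -0.37, but it read nearly the same on every array and is not independent support. Without SCS replicate 1 the SCS difference was -0.29. SLC26A2, a sulfate transporter known from cartilage, lay between 6.74 and 7.64 and differed by 0.38 for SCS (limma adjusted p = 0.40). SLC26A5 and SLC26A8, known from hair cells and testis, were dim.

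SLC12A2 encodes NKCC1, the sodium-potassium-chloride cotransporter of the blood side of many epithelia. It read 6.63, 6.61 and 6.69 in No Storage, 6.59, 6.42 and 6.48 in SCS, and 6.91, 6.83 and 6.62 in NEVKP. SCS lay below both other groups, by 0.03 at the nearest pair in each case. NEVKP differed from SCS by 0.29 (95% interval 0.02 to 0.56, limma adjusted p = 0.648). SLC12A5, the neuronal cotransporter KCC2, was dim.

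The calcium-exporting exchangers showed little. SLC8A2, the sodium-calcium exchanger NCX2, lay between 5.41 and 5.99, and its 3 probe sets differed in sign for SCS against No Storage (0.11, 0.22 and -0.34). SLC8A3 and the potassium-dependent exchangers SLC24A2, SLC24A4 and SLC24A5 were dim, as were SLC4A10, SLC12A5, SLC26A5 and SLC26A8, and none of these 8 had an unadjusted p under 0.05 in limma in any comparison.

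**Figure D3:**
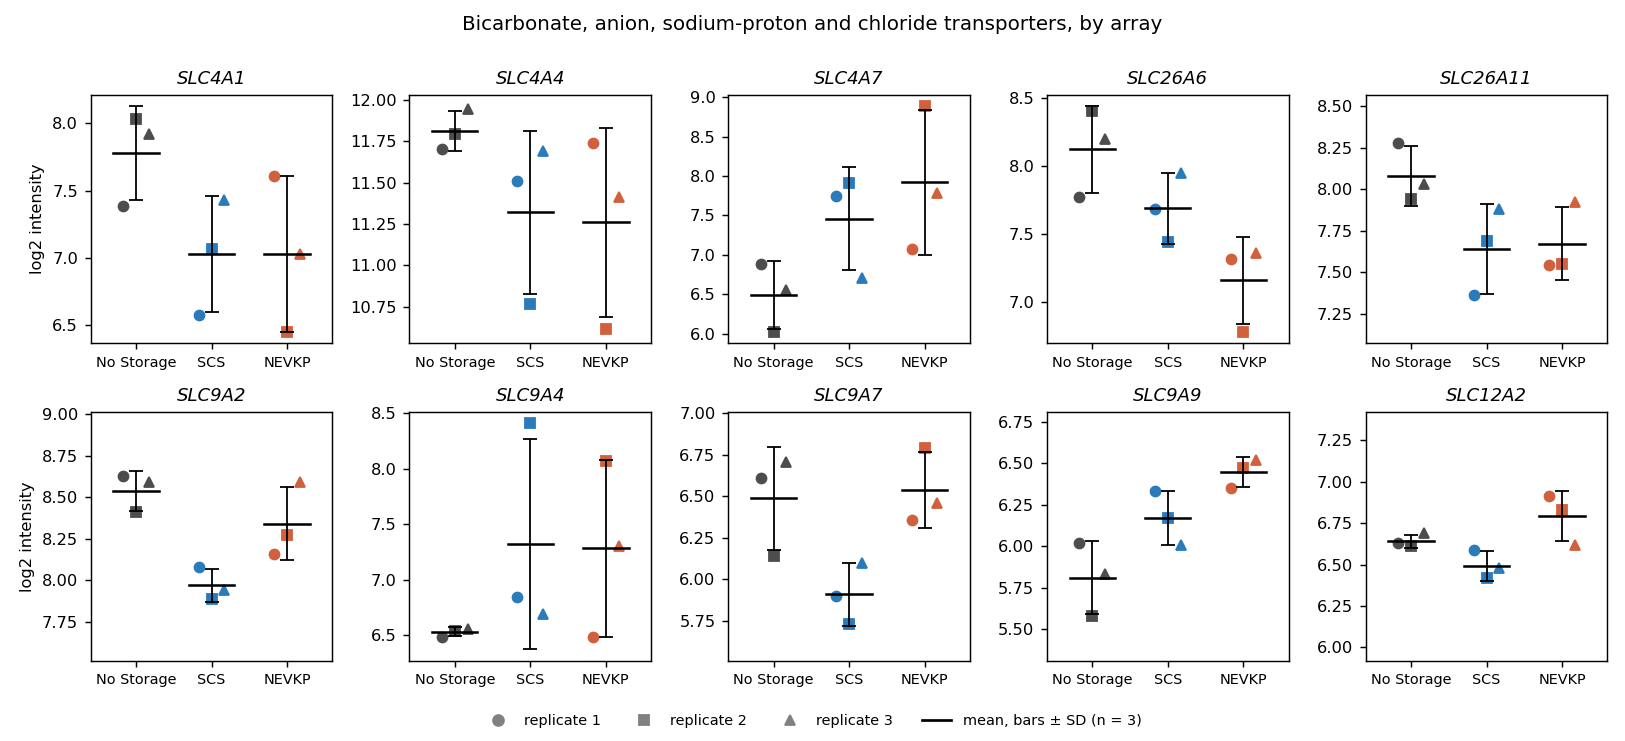
Log2 intensity (y axis, scaled per gene) of 10 bicarbonate, anion, sodium-proton and chloride transporters in No Storage, SCS and NEVKP (x axis); each symbol is 1 array, lines are means and bars are SD (n = 3 animals). SLC9A2 and SLC9A7 are lowest in SCS, SLC26A6 is lowest and SLC9A9 highest in NEVKP, and replicate 2 of SCS and NEVKP lie farthest from the rest for SLC4A4 and SLC9A4.

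Across the 27 members above the dim limit, SCS replicate 2 was the highest of all 9 arrays for 5 members and the lowest for 8, and NEVKP replicate 2 was the highest for 5 and the lowest for 6. The other 7 arrays were highest for 1 to 5 members and lowest for 0 to 5. These 2 arrays were the highest of all for SLC34A2, SLC9A4 and SLC4A7, and the lowest of all for SLC13A1, SLC13A3 and SLC4A4. Without both arrays, 0 of 35 members passed in limma in any comparison. The SCS differences without them were -0.84 for SLC13A3, -0.82 for SLC13A2 and 0.61 for SLC20A1, and the NEVKP differences were 0.94 for SLC4A7, -0.78 for SLC26A6 and 0.62 for SLC9A9.

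**Figure D4:**
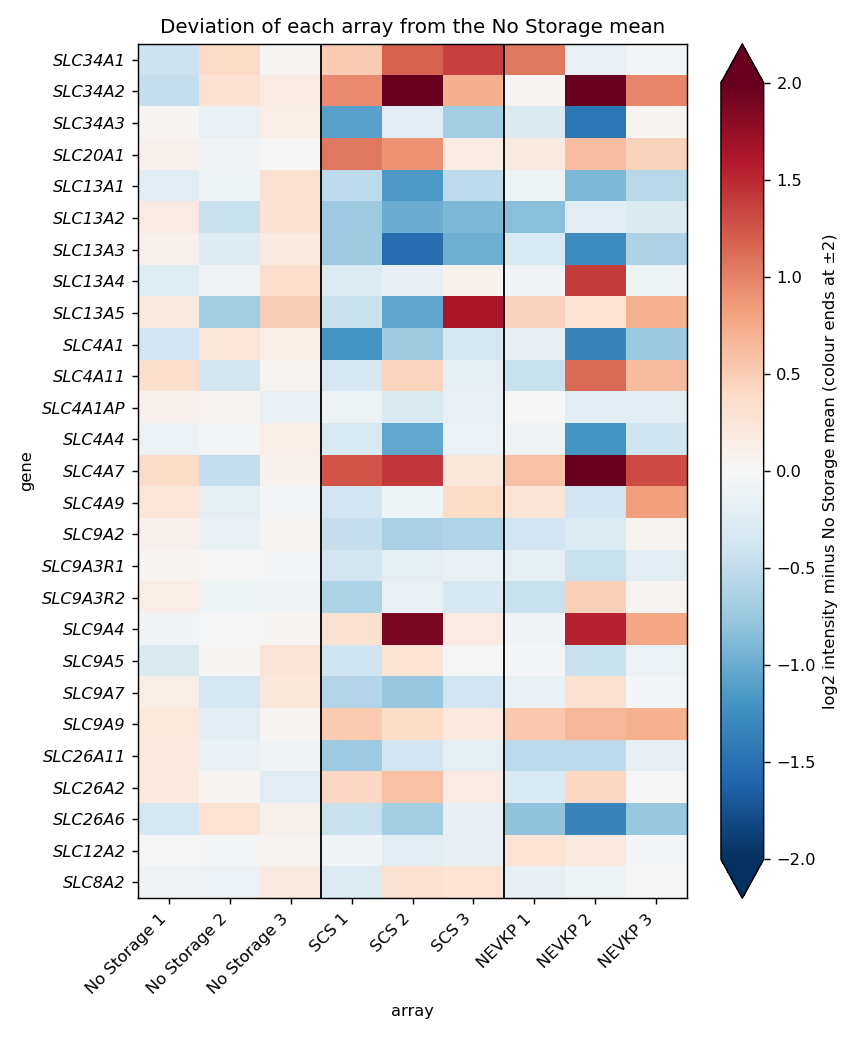
Log2 intensity of each of the 27 members above the dim limit (rows, by family) in each array (columns) minus the mean of the No Storage arrays of that gene, as colour from -2 to 2, with values beyond drawn at the end of the scale. The darkest red cells are those of SLC34A2 in SCS 2 and NEVKP 2, SLC4A7 in NEVKP 2 and SLC9A4 in SCS 2, and the darkest blue ones those of SLC13A3 in SCS 2 and SLC34A3 in NEVKP 2.

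Genes around these transporters were read from lists of general knowledge, and 0 of them passed in limma over all probe sets in any comparison. Their counts were taken at an unadjusted p under 0.05, which 7.79% of all named genes met as higher and 9.06% as lower in SCS, and 5.16% and 4.77% in NEVKP, with medians over all named genes of 0.00 and -0.01. Of 14 genes of the phosphate hormone axis, 11 were measured, with 2 higher and 4 lower in SCS than in No Storage at an unadjusted p under 0.05, and a median of -0.19. PTH1R, the parathyroid hormone receptor, read 9.77, 9.50 and 9.70 in No Storage, 8.59, 8.47 and 8.97 in SCS, and 9.38, 8.47 and 9.33 in NEVKP, below No Storage in every preserved kidney (SCS difference -0.99, limma adjusted p = 0.103). FGFR4, a receptor of FGF hormones, lay lower in every SCS array, by 0.70 in the mean (difference -0.70, limma adjusted p = 0.131), as did STC1, the hormone stanniocalcin-1 (difference -0.92, limma adjusted p = 0.235). The remaining gene of the 4 lower ones, XPR1, differed by -0.45 in SCS (limma adjusted p = 0.24), and all its SCS and NEVKP arrays lay below No Storage. The 2 higher genes were CYP24A1, the enzyme that breaks down active vitamin D, and FGFR1, an FGF receptor, both singled out after their values were seen. CYP24A1 differed by 1.28 in SCS with overlapping arrays (limma adjusted p = 0.303) and by -1.32 between NEVKP and SCS (limma adjusted p = 0.648). FGFR1 lay higher in every SCS array than in No Storage, by 0.64 in the mean (limma adjusted p = 0.279). FGF23 itself, a bone hormone, lay between 3.97 and 4.83 and differed by -0.43 between NEVKP and SCS (limma adjusted p = 0.609), with no overlap between those groups. In NEVKP against No Storage, 0 of the 11 were higher and 1 lower, with a median of -0.22.

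Carbonic anhydrases speed the conversion of bicarbonate to carbon dioxide that proximal bicarbonate uptake needs. Of 12 genes listed by CA symbol, whether or not their product is an active enzyme, 6 were measured, 3 of them dim. Lower than No Storage at an unadjusted p under 0.05 were CA4, CA12 and the dim CA3 in SCS, and CA4, CA12 and the dim CA8 in NEVKP, with 0 higher in either and medians of -0.42 and -0.43. The NEVKP arrays of CA12 and CA8 overlapped those of No Storage. CA4, the membrane-bound enzyme of the proximal tubule, read 10.17, 10.23 and 10.04 in No Storage, 9.31, 8.93 and 9.63 in SCS, and 9.83, 9.17 and 9.57 in NEVKP, again with replicate 2 lowest in both preserved groups. Its differences were -0.86 (limma adjusted p = 0.104) and -0.62 (limma adjusted p = 0.444). CA12, a membrane-bound enzyme on the blood side, differed by -1.13 in SCS (limma adjusted p = 0.119) and -0.71 in NEVKP (limma adjusted p = 0.526).

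Of 13 sodium pump genes 5 were measured, with 2 lower and 0 higher in SCS and 1 higher and 0 lower in NEVKP at an unadjusted p under 0.05, and medians of -0.18 and 0.03. ATP1B1, the main beta subunit of kidney tubules, read 12.21, 12.12 and 12.29 in No Storage, 11.56, 11.59 and 11.91 in SCS, and 12.13, 12.23 and 11.92 in NEVKP. The SCS arrays lay below both other groups, with 11.91 in the highest SCS array against 11.92 in the lowest NEVKP array. SCS differed by -0.52 from No Storage (limma adjusted p = 0.13), and NEVKP from SCS by 0.41 (limma adjusted p = 0.602). The part of thick ascending limb and distal tubule markers in the ATP1B1 differences was not tested. ATP1B2 differed by -0.56 in SCS (limma adjusted p = 0.167), and ATP1B3 by 0.58 in NEVKP (limma adjusted p = 0.546).

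Among scaffold and partner genes 9 were measured, SLC9A3R1 and SLC9A3R2 included, with 3 lower in SCS and 1 lower in NEVKP at an unadjusted p under 0.05, 0 higher in either, and medians of -0.24 and -0.16. The IRBIT family genes AHCYL1 and AHCYL2, of which the first activates NBCe1, differed by -0.38 and -1.10 in SCS (limma adjusted p = 0.261 and 0.238). MYO6, a myosin that moves brush border proteins inward, differed by -0.30 (limma adjusted p = 0.299). Of 15 genes of the WNK kinase pathway, which sets the activity of SLC12 cotransporters, 6 were measured. KLHL3, an adaptor that marks WNK kinases for degradation, was the 1 that was lower in SCS at an unadjusted p under 0.05 (-0.54, limma adjusted p = 0.204), and 0 were in NEVKP.

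Of 18 chloride channel genes 9 were measured, with 3 lower and 0 higher in SCS and 2 lower and 2 higher in NEVKP at an unadjusted p under 0.05, and medians of 0.06 and -0.14. CLCN3, a chloride-proton exchanger of endosomes, read 8.80, 9.16 and 9.04 in No Storage, 8.55, 8.39 and 8.64 in SCS, and 8.65, 8.54 and 8.55 in NEVKP. Both preserved groups lay below No Storage without overlap, with differences of -0.48 (limma adjusted p = 0.135) and -0.42 (limma adjusted p = 0.439). CLIC5 differed by -0.61 in SCS (limma adjusted p = 0.163), CLCN7, a lysosomal exchanger, by -0.29 (limma adjusted p = 0.292), and ANO6, a scramblase and channel, by -0.31 in NEVKP (limma adjusted p = 0.523).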

How the data were processed

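Total RNA from 9 kidney biopsies was labelled with biotin for Affymetrix arrays, per the labels' protocols. Each deposited value is a log2 intensity of 1 probe set after RMA by the authors, per the submitters' processing notes, which also name limma 3.34.14. The array design is not given in the sources read. Of 19124 probe sets, 13680 carried an array annotation, 13323 with 1 symbol and 357 with several, and 7 were dropped because symbol and gene ID disagreed, which left 13316 probe sets of 12355 genes. The 35 members took 40 probe sets. RefSeq (Sscrofa11.1) listed the gene IDs of 33 members under the same symbol, the exceptions being SLC34A1 and SLC4A9. Of 33 members fixed by name, 20 were measured, and SLC9A3, SLC12A3, SLC20A2 and SLC26A4 were among those not analysed here.

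A linear model with the group as factor was fitted to all probe sets and all 9 arrays with limma 3.58.1 in R 4.3.3 (eBayes, 6 residual and 4.12 prior degrees of freedom), and p values were adjusted by Benjamini-Hochberg over all probe sets within a comparison, with a threshold of 0.05. The steps were tested on simulated data. Each array is a separate animal, and their number limits the precision. Intervals are 95% and not adjusted. The members and lists were chosen with earlier results of these data known. Named members were, per comparison, up to 8 in each direction by smallest unadjusted p under 0.05, the members fixed by name, and others by family with their range. Related genes were up to 4 per list by smallest p. Alternatives were a replicate block, array weights, a prior with trend and robust estimation, dropping the dimmest 25% of probe sets, array medians set equal, averaging all probe sets of a gene, fitting only the 2 groups at hand, and leaving out every array in turn. Omission of SCS replicate 2 and NEVKP replicate 2 together was added after the data were seen. Same-numbered arrays of different groups had deviations correlating from -0.14 to 0.13, so the numbers were not taken to pair animals.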

Additional observations from a re-analysis of the deposited data

How the results depend on the processing

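For SCS against No Storage, the 31 probe sets that passed in limma became 83 with a trended robust prior, 93 with array weights, 82 without the dimmest 25%, 49 with centred arrays, 48 with the mean of probe sets, 0 without SCS replicate 2 and NEVKP replicate 2, and 0 to 158 without single arrays. The members that passed numbered 0 to 1 without single arrays and 0 in the other alternatives. Their median, -0.04 with all, was -0.15 without the dimmest 25%, where 8 members drop out, and -0.20 to 0.00 without single arrays. For NEVKP against No Storage 0 probe sets and 0 members passed in all alternatives. For NEVKP against SCS, 1 probe set passed with array weights, 0 to 1 passed without single arrays, and 0 members passed in any alternative. The difference of SLC4A7 between NEVKP and SCS, 0.46, was -0.03 without NEVKP replicate 2 and up to 0.88 without other single arrays. The cause of these shifts was not tested. With the replicate number as a block, 27 probe sets and 0 members passed for SCS against No Storage, and 0 probe sets in the other comparisons. At an unadjusted p under 0.05 the block gave 5 higher members for SCS against No Storage rather than 3, and fitting the compared groups alone gave 6 higher and 9 lower rather than 3 and 7. These counts have no share of all named genes beside them, since it was taken in the main fit only.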
